A study of Mus musculus with 20 samples.

Results

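The control state of C2C12 cells was described from 5 of the 20 arrays of the series, chosen by their labels: 2 arrays of untreated cells and 3 arrays of cells given methanol. C2C12 is an established line of mouse myoblasts, the precursor cells of skeletal muscle. The series set 3 compounds beside BMP4, a bone morphogenetic protein, and the remaining 15 arrays held cells given BMP4 or a compound. All 5 control arrays held total RNA of cells grown in medium with serum, passaged before they became confluent, plated in multiwell plates overnight and then given fresh medium with the same serum. Untreated cells received no addition. The protocol names methanol beside the compounds but gives neither its concentration nor the time until RNA was taken. The sample titles carry running numbers in 2 runs, 10 to 17 and 18 to 29, and no source used here says what these runs stand for. Untreated replicate 1 (number 10) and methanol replicate 1 (number 11) lay in the first run. Untreated replicate 2 (number 18) and methanol replicates 2 and 3 (numbers 19 and 20) lay in the second. Replicate numbers here follow the order of the records and pair no samples. Nothing in the labels says that separate cultures were used, so a p-value here measures only how far these samples spread, which may be technical variation.

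Myoblasts are held in the muscle lineage by the transcription factors MyoD and Myf5. When they leave the cell cycle they switch on myogenin, fuse through the membrane proteins myomaker and myomixer, and build the sarcomere, the contractile unit made of myosin, actin, troponins and their scaffolds. BMP signals act through receptor kinases and SMAD proteins, induce the Id proteins that hold MyoD in check, and turn C2C12 cells towards an osteoblast programme. MyoD family proteins bind a short DNA element, the E-box, which reads CANNTG, and the skeletal muscle microRNAs miR-206 and miR-133b lie beside each other in the genome and are made during muscle differentiation.

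The promoter stretches of 3 muscle genes are shown because their signal on the control arrays differed between the runs, as described further on. Each covers the 250 bases before the annotated start in the RefSeq assembly GRCm38.p6, read 5′ to 3′ on the gene's strand, with matches to CANNTG in capitals. Myog, which encodes myogenin, lies on the plus strand at chr1:134289754-134290003. Chrng, the fetal gamma subunit of the muscle acetylcholine receptor, lies on the plus strand at chr1:87205561-87205810. Myoz2, a protein of the sarcomeric Z-disc, lies on the minus strand at chr3:123034988-123035237.
Myog: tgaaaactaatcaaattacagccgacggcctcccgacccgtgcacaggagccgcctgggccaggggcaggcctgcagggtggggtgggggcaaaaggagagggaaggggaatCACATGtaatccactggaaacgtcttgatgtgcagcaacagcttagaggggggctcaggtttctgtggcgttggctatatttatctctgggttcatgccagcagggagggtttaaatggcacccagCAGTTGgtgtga
Chrng: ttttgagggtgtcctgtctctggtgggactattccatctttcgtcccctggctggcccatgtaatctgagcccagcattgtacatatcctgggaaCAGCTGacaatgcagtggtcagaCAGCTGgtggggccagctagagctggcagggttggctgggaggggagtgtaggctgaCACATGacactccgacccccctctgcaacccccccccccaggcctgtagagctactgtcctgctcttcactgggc
Myoz2: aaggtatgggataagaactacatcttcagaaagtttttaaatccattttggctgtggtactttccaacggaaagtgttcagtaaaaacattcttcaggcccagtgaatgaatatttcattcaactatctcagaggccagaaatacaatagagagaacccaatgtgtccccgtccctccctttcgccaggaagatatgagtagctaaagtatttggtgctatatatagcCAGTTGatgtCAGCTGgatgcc
In the Myog stretch CACATG began 138 bases and CAGTTG 12 bases before the start. In the Chrng stretch CAGCTG began 155 and 132 bases before the start and CACATG 75 bases before it. In the Myoz2 stretch CAGTTG began 22 bases and CAGCTG 12 bases before the start. CANNTG reads the same on both strands, and CAGCTG is one form of it. Over all 27025 genes with such a stretch, 69.3% held CANNTG and 14.7% held CAGCTG, so the presence of an E-box is common, and a match is a description of the letters and not of a site in use.

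The mature sequences of the muscle microRNAs are shown because the array measures their precursors separately. Capitals mark the seed, bases 2 to 8, and the sequences are those of RefSeq on GRCm38.p6.
mmu-miR-133b-3p: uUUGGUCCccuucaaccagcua
mmu-miR-206-3p: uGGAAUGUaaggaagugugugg
The first lies at chr1:20682834-20682855 and the second at chr1:20679055-20679076, both on the plus strand, and their seeds differ. The Mir133b precursor read 8.62 and 8.12 on the untreated arrays and 8.49, 8.52 and 8.43 on the methanol arrays, in log2 signal. The Mir206 precursor read 3.07 and 3.86 on the untreated arrays and 4.10, 3.70 and 3.86 on the methanol arrays. Mir133b was above the background floor on all 5 arrays and Mir206 on none. The other 6 muscle microRNA precursors measured, among them Mir1a-1, Mir133a-1 and Mir499, were also below the floor on every array.

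This background floor was the 95th percentile of 1405 probe sets for olfactory and vomeronasal receptors, taken on each array because these are genes of sensory neurons, and it lay between 4.80 and 5.09. A gene was counted as above background where it passed the floor on all 5 arrays, which 11928 of the 22180 genes did (53.8%). Levels are set against this floor and not against one another, since probe sets differ in brightness. Array medians lay between 4.96 and 5.05, and the number of arrays limits the precision of what follows.

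Genes of committed muscle cells were above background in both controls. Of 28 myogenic regulators measured, 26 were above background on all 5 arrays, and of 25 genes of the myoblast surface and of fusion 24 were. Myod1, which encodes MyoD, read 10.57 and 10.43 on the untreated arrays and 10.69, 10.46 and 10.48 on the methanol arrays. Myf5, its relative, read 9.20 and 9.46 on the untreated arrays and 9.15, 9.23 and 9.39 on the methanol arrays. The untreated and methanol arrays overlapped for both genes. Pax7, a transcription factor of muscle stem cells, was above background at 7.75 to 8.04, whereas Pax3, its relative of the embryonic muscle lineage, was below it on every array at 4.15 to 4.55. Myf6, the remaining member of the MyoD family, read 6.01 to 6.20. Among surface proteins of myoblasts, Itga7 (integrin alpha 7) read 11.67 to 11.79, Ncam1 11.33 to 11.55, Cdh15 (M-cadherin) 9.95 to 10.08 and Vcam1 8.94 to 9.11.

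Genes of differentiating muscle were also above background in these cultures. Myog read 11.17 and 10.94 on the untreated arrays and 11.22, 10.85 and 10.69 on the methanol arrays. Mymk, which encodes myomaker, read 12.14 and 12.02 on the untreated arrays and 12.18, 12.12 and 11.94 on the methanol arrays. Mymx, which encodes myomixer, read 7.19 and 6.73 on the untreated arrays and 7.26, 6.69 and 6.47 on the methanol arrays. For all 3 genes the highest arrays were those of the first run in each control. Of 44 sarcomere genes 37 were above background, among them embryonic myosin heavy chain Myh3 (8.98 to 9.71), skeletal actin Acta1 (11.73 to 12.08), cardiac actin Actc1 (11.64 to 11.88) and the intermediate filament gene Des (11.48 to 11.69). Below the floor on every array were the cardiac myosin gene Myh6 and the Z-disc genes Myoz1 and Myot, and the adult fast myosin gene Myh2 passed it on 1 array. Of 33 genes of excitation, the synapse and muscle metabolism 28 were above background. The receptor subunits separated by stage: the fetal subunit gene Chrng read 9.68 to 10.32, and the adult subunit gene Chrne stayed below the floor at 4.33 to 4.89. The muscle creatine kinase gene Ckm read 8.32 to 8.99, whereas sarcolipin (Sln) and the mitochondrial creatine kinase Ckmt2 were below the floor. In bulk RNA, a larger share of differentiating cells and more muscle RNA in each cell cannot be told apart.

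Genes of dividing cells were above background in the same cultures. All 38 genes of S and M phase measured were above background, and 15 of 16 genes of cell cycle exit were. Mki67, a marker of cycling cells, read 9.53 and 9.62 on the untreated arrays and 9.52, 9.75 and 9.81 on the methanol arrays. Cdkn1a, which encodes the p21 inhibitor that rises as myoblasts leave the cycle, read 12.27 and 12.26 on the untreated arrays and 12.32, 12.32 and 12.23 on the methanol arrays. The arrays of both controls overlapped for either gene.

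**Figure D1:**
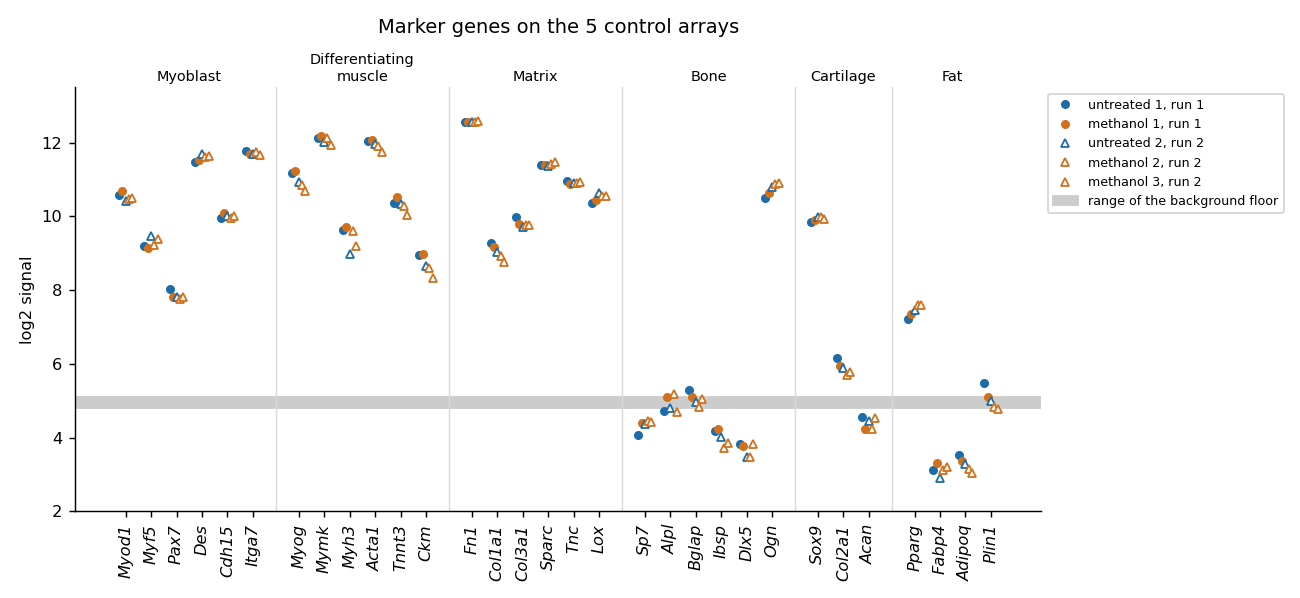
Log2 signal of marker genes (x axis, grouped by cell type or role) on each of the 5 control arrays; circles are first-run arrays, triangles second-run arrays, blue untreated and orange methanol, and the grey band spans the background floors of 4.80 to 5.09. Myoblast, muscle and matrix genes lie above the band on every array, whereas Sp7, Ibsp, Dlx5, Acan, Fabp4 and Adipoq lie below it.

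Genes of the bone programme lay on both sides of the floor. Of 23 osteoblast genes measured 10 were above it on all 5 arrays (43.5%), 7 were below it on all 5 and 6 passed it on some. The share lay near the 53.8% of all genes, and the count was 4 with the 99th percentile of the receptor probe sets as the floor and 16 with the 90th. Sp7, which encodes the osteoblast transcription factor osterix, read 4.06 and 4.37 on the untreated arrays and 4.40, 4.45 and 4.43 on the methanol arrays. All 5 values lay below the floor, while the highest of the other 15 arrays read 10.43, so the probe set can report the gene. Alpl, the alkaline phosphatase used as the classic readout of BMP action in these cells, read 4.72 and 4.81 on the untreated arrays and 5.10, 5.18 and 4.68 on the methanol arrays. It passed the floor on 2 arrays, both of methanol, and reached 10.33 elsewhere in the series. The channel gene Panx3 (4.13 to 4.58) and the homeobox gene Dlx5 (3.47 to 3.82) were likewise below the floor in all controls and reached 10.27 and 6.37 elsewhere. Bglap, which encodes osteocalcin, hovered at the floor at 4.82 to 5.30, above it on 4 arrays. Ibsp, bone sialoprotein, stayed between 3.71 and 4.22 and was no higher than 4.06 on any other array. Members above background included the leucine-rich proteoglycan genes Ogn (10.50 to 10.91), Fmod (5.70 to 6.42) and Omd (5.40 to 5.81), the last of which reached 10.99 elsewhere. The pyrophosphate transporter gene Ank (10.41 to 10.74) was also above it.

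Of 19 chondrocyte genes 8 passed the floor on all 5 arrays and of 20 adipocyte genes 10 did, beside 53.8% of all genes. Sox9, the master regulator of cartilage, read 9.86 and 9.99 on the untreated arrays and 9.90, 9.98 and 9.92 on the methanol arrays. Acan, the cartilage proteoglycan aggrecan, was below the floor on every array at 4.24 to 4.56, and Col2a1, cartilage collagen, was just above it at 5.68 to 6.15. Pparg, the regulator of fat cells, read 7.20 and 7.45 on the untreated arrays and 7.36, 7.59 and 7.59 on the methanol arrays. The fat cell products Fabp4 (2.89 to 3.31) and Adipoq (3.03 to 3.54) were below the floor on every array, and Fabp4 reached 7.81 elsewhere in the series. Lpl, lipoprotein lipase, was above it at 7.27 to 8.12.

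Matrix genes were broadly above background. Of the 100 genes of 4 matrix lists 80 were: 14 of 16 fibrillar and associated collagens, 15 of 22 basement membrane genes, 28 of 35 adhesive, elastic and matricellular genes and 23 of 27 genes of crosslinking and turnover. Fn1, fibronectin, varied least among the genes described here, at 12.55 to 12.59 over the 5 arrays. Col3a1 read 9.99 and 9.70 on the untreated arrays and 9.79, 9.76 and 9.75 on the methanol arrays. Col1a1, a chain of the main collagen of bone and dermis, read 9.28 and 9.05 on the untreated arrays and 9.18, 8.91 and 8.77 on the methanol arrays. Its 2 highest values were those of the first run. Sparc (11.38 to 11.46), the matricellular protein tenascin C, Tnc (10.87 to 10.96), the perlecan gene Hspg2 (10.25 to 10.41) and the crosslinking enzyme gene Lox (10.36 to 10.64) were above background with little spread. Elastin (Eln, 4.31 to 4.63), lumican (Lum, 3.19 to 3.57), the laminin chain gene Lama1 (4.39 to 4.75) and the collagenase gene Mmp13 (2.84 to 3.29) were below the floor on every array.

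Genes that receive a BMP signal were mostly above background. Of 22 receptor and SMAD genes 20 were above background. Bmpr1a, a type I receptor, read 8.94 to 9.09 and Bmpr2, the type II receptor, 10.60 to 10.81, whereas the type I receptor Bmpr1b was below the floor at 3.69 to 4.09. The signal-carrying SMAD genes Smad1 (7.01 to 7.25) and Smad5 (7.66 to 7.77) and the shared partner Smad4 (9.57 to 9.70) were above it. Of the pathway's targets, the inhibitory Smad6 read 5.81 to 6.04 and the Id1 gene 7.02 to 7.37. These genes reached 9.43 and 9.04 on other arrays of the series. Apart from the bone genes given above, such as Alpl and Sp7, other targets were not compared in this way. Id2, another Id gene, is given with the run differences further on. Of 28 ligand and antagonist genes 18 were above background, among them Bmp4 itself (7.10 to 7.73), Grem1 (8.36 to 8.74) and follistatin, Fst (7.46 to 8.00). Bmp2, Bmp6 and the myostatin gene Mstn were below it.

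Markers of other cell types were partly above background, beside 53.8% of all genes. The shares of epithelial (54.5%) and neural (45.5%) markers lay near that of all genes. Of 12 endothelial markers 1 (Egfl7, 5.25 to 5.56) was above the floor on all 5 arrays, and Pecam1 (4.39 to 4.83) and Kdr (3.51 to 4.35) were below it. Of 11 macrophage and leukocyte markers 3 were, including the lysosomal gene Cd68 (5.33 to 6.17), and the pan-leukocyte gene Ptprc was below it at 3.31 to 3.55. Of 11 epithelial markers 6 passed, led by the keratin Krt19 (6.90 to 7.18), while Epcam was below it at 3.74 to 3.92. Of 11 neural markers 5 passed, with Tubb3 at 9.16 to 9.48 and the neurofilament gene Nefl at 8.50 to 9.28. With the 99th percentile as the floor these counts were 0, 1, 1 and 3.

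**Figure D2:**
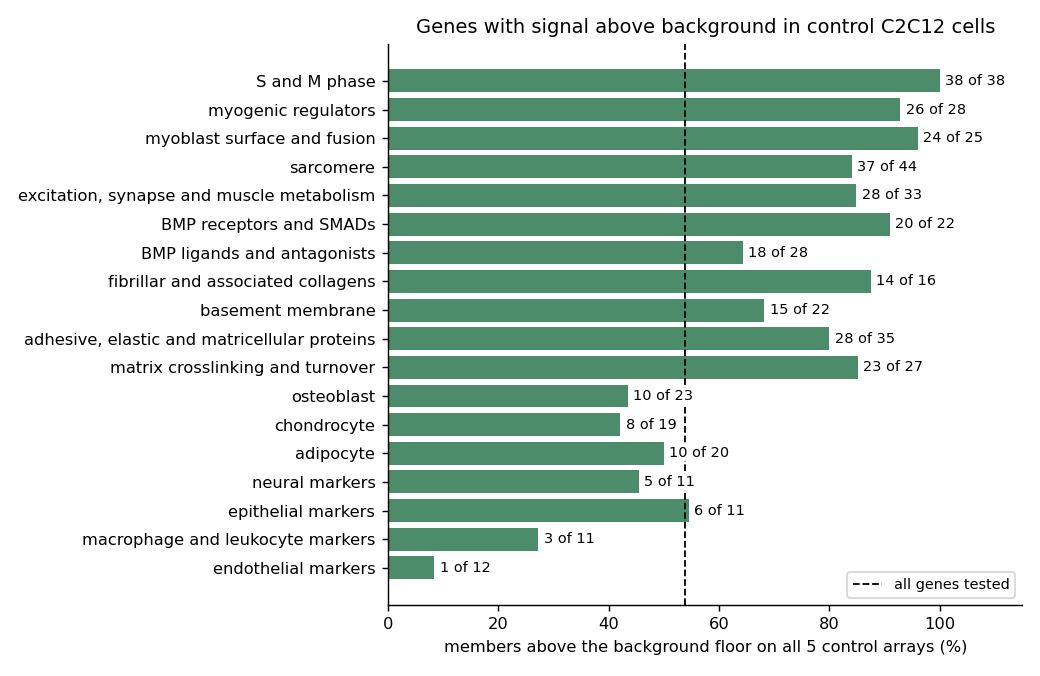
Share of the measured members of 18 gene lists with signal above the background floor on all 5 control arrays (bars, percent, with the counts beside them); the dashed line is the 53.8% of all 22180 genes. The cell cycle, muscle, BMP receptor and collagen lists lie far to the right of the line, and the osteoblast (10 of 23), chondrocyte (8 of 19), macrophage (3 of 11) and endothelial (1 of 12) lists lie to its left.

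The 5 arrays differed more between the runs than between the controls. Over genes above background, the closest pair was methanol replicates 2 and 3, which share treatment and run, with a median absolute log2 difference of 0.0735. Pairs of different treatment within a run differed by 0.102 to 0.109, and pairs of one treatment from different runs by 0.140 to 0.151. Pearson correlations over all probe sets, which share every array's overall brightness profile, were 0.979 to 0.991. In a principal component analysis of the same genes, 58.0% of the variance lay on a first axis that placed the first-run arrays at -17.1 and -10.2 and the second-run arrays at 6.26, 9.26 and 11.8. A second axis with 17.1% placed the untreated arrays at -5.56 and -8.34 and the methanol arrays at 8.98, 3.70 and 1.22. The median range of a gene above background over the 5 arrays was 0.30, and 79 such genes spanned more than 1 log2 unit. Among the widest were the small nucleolar RNA gene Snord47, which read 7.22 and 8.62 on the untreated arrays and 8.18, 8.84 and 8.79 on the methanol arrays, and the interferon-inducible gene Ifi204, which read 6.06 and 7.42 on the untreated arrays and 6.90, 7.51 and 7.59 on the methanol arrays. In both genes untreated replicate 1 stood lowest. The mitochondrially encoded ND6, the zinc finger gene Zfp935 and the histocompatibility gene H2-Q10 belonged to the same group.

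**Figure D3:**
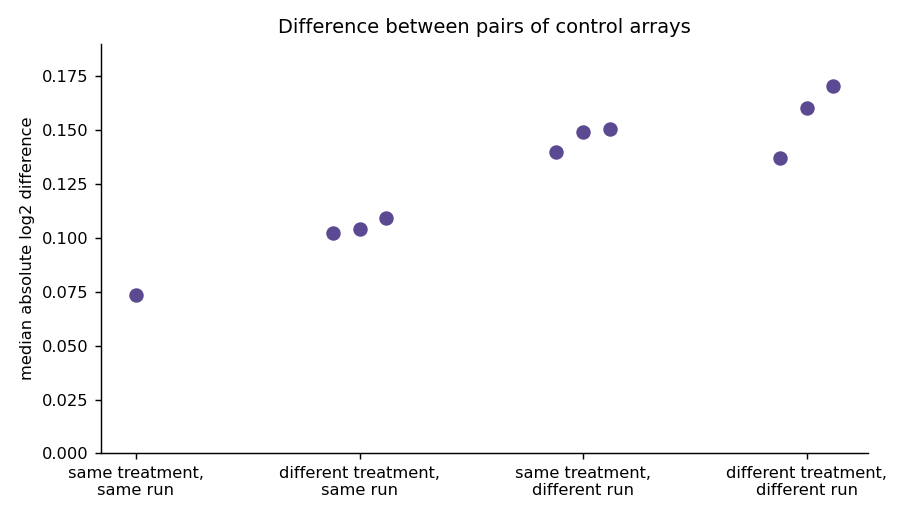
Median absolute log2 difference (y axis) between each of the 10 pairs of control arrays over the 11928 genes above background, by whether the pair shares treatment and run; each point is 1 pair. The methanol pair of the second run sits lowest at 0.0735, pairs within a run at 0.102 to 0.109 and pairs across runs at 0.137 to 0.171.

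Methanol against untreated cells gave no called gene. With limma, fitted to the 5 arrays with a term for the run, 0 of 22180 genes passed a Benjamini-Hochberg adjusted p of 0.05, and the smallest adjusted p was 0.109. At an unadjusted p under 0.05 there were 1984 genes (8.94%), 1231 higher with methanol (5.55%) and 753 lower (3.39%), where chance gives 1109. No gene of any kind differed by more than 1 log2 unit, and the median standard error was 0.129. The count depended on single arrays: leaving out untreated replicate 1 gave 324 genes, untreated replicate 2 gave 411, methanol replicate 1 gave 327, and methanol replicate 2 or 3 gave 0. In those 3 fits with calls the only residual spread is that between methanol replicates 2 and 3, the closest pair. Differences found in the first run did not resemble those found in the second, with r = 0.0959 over the genes above background, a description across genes that share arrays and are not replicates.

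For muscle, bone and matrix genes the methanol differences are given with their intervals. The estimate for Myod1 was 0.08 (95% interval -0.03 to 0.18), for Myog -0.07 (-0.22 to 0.07) and for Des -0.01 (-0.11 to 0.08). For Sp7 it was 0.18 (-0.14 to 0.50) and for Alpl 0.23 (-0.14 to 0.60), both at background signal. Fibronectin gave 0.00067 (-0.08 to 0.08) and Col3a1 -0.05 (-0.19 to 0.08). The intervals are not adjusted for the number of genes, and they leave room for changes of up to about the size of their bounds.

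Genes that metabolise methanol did not pass either. Of 25 genes of methanol, formaldehyde and one-carbon metabolism 18 were above background, and at an unadjusted p under 0.05 none was higher and 1, Aldh1l1, was lower. Adh5, the formaldehyde-oxidising alcohol dehydrogenase, read 8.00 and 8.13 on the untreated arrays and 8.15, 8.22 and 8.23 on the methanol arrays. All 3 methanol arrays lay above both untreated ones, the nearest being 8.15 and 8.13, and the estimate was 0.12 (-0.03 to 0.26). Cat, the catalase that oxidises methanol in rodents, read 9.55 and 9.73 on the untreated arrays and 9.66, 9.63 and 9.62 on the methanol arrays, an estimate of -0.01 (-0.15 to 0.12). The liver alcohol dehydrogenase gene Adh1 and the cytochrome gene Cyp2e1 were below the floor on every array.

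The genes with the strongest statistics for methanol are given as values, since none passed. Pkia, an inhibitor of protein kinase A, read 9.20 and 9.41 on the untreated arrays and 9.62, 9.85 and 9.77 on the methanol arrays. Every methanol array lay above both untreated arrays, with an estimate of 0.41 (SE 0.0547, limma adjusted p = 0.112). The predicted gene Gm13034 read 6.23 and 7.06 on the untreated arrays and 7.0, 7.69 and 7.70 on the methanol arrays. Here the groups overlapped and methanol was higher within each run, with an estimate of 0.70 (SE 0.0822, limma adjusted p = 0.109). Jun, an immediate early transcription factor, read 9.64 and 9.42 on the untreated arrays and 9.93, 9.89 and 10.03 on the methanol arrays, with no overlap and an estimate of 0.43 (limma adjusted p = 0.193). Of the other 23 immediate early genes 1, Zfp36, had an unadjusted p under 0.05, and its estimate was -0.17. The small nucleolar RNA genes Snora16a (0.55) and Snord49b (0.44), the membrane fusion gene Snap23 (0.34), the telomere protein gene Terf1 (0.54) and Ppid (0.43), Sfr1, Uprt, Cacybp and Elmod2 completed the higher side. On the lower side the largest statistic was that of Olfr519, an olfactory receptor gene, which read 5.86 and 5.56 on the untreated arrays and 4.86, 4.61 and 4.70 on the methanol arrays. Its mean over the 5 arrays passed the floor, which placed it here, but the methanol arrays lay below the floor, so its difference is not given. The remainder were Cd300ld3 (-0.49), Gm13315 (-0.55), Zfp108 (-0.60), Gm5592, Cmtm7, Get3, Ifnl3, Gpr149, the glutathione transferase gene Gstm2, Polr2a and Bmpr2. Without untreated replicate 2 the estimate of Snord49b was 0.26, that of Gstm2 went from -0.36 to -0.16 and that of Polr2a from -0.25 to -0.16.

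Bmpr2, the type II BMP receptor, had the smallest unadjusted p among the BMP ligand, antagonist, receptor and SMAD genes, at 0.00126. It read 10.81 and 10.80 on the untreated arrays and 10.60, 10.62 and 10.60 on the methanol arrays. The groups did not overlap and the difference was -0.21 within the first run and -0.19 within the second, an estimate of -0.20 (SE 0.045, limma adjusted p = 0.391). Grem1, an antagonist of BMP ligands, read 8.39 and 8.36 on the untreated arrays and 8.58, 8.74 and 8.70 on the methanol arrays, an estimate of 0.29 that also did not pass (limma adjusted p = 0.391). Groups that do not overlap were common among all genes, with 9.04% of genes apart and higher with methanol and 9.38% apart and lower. Within both runs 20.4% of genes were higher with methanol and 18% lower.

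By gene list, methanol differences were small. Over all genes 5.55% were higher and 3.39% lower at a limma unadjusted p under 0.05. Of the 11928 genes above background 1025 were higher and 361 lower. At an unadjusted p under 0.05, 5 of 15 heat shock genes were higher and none lower (Hspa1b, Hspa4l, Hspd1, Hsph1 and Hsf2), as were 5 of 19 genes of cholesterol synthesis and uptake (Hmgcs1, Msmo1, Nsdhl, Sc5d and Stard4). The chaperonin gene Hspd1 read 9.22 and 9.23 on the untreated arrays and 9.38, 9.43 and 9.44 on the methanol arrays, without overlap. The list medians were 0.01 for heat shock and 0.08 for cholesterol, beside 0.0037 for all genes. After quantile normalization the heat shock median was -0.02 and that of all genes -0.00304. Among sarcomere genes 4 were higher and 1 lower, with a median of 0.02, and over the 4 matrix lists none was higher and 4 were lower, with a median of -0.01 as deposited and 0.02 after centring. Of 78 small nucleolar RNA genes 26 were higher and 2 lower, with a median of 0.11, and the medians within the first and the second run were 0.08 and 0.15. All 10 mitochondrially encoded genes had positive estimates, yet their median was 0.15 within the first run and -0.01 within the second. None of these genes passed after adjustment over all genes.

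The second run differed from the first in 1527 genes (6.88%) by limma at an adjusted p under 0.05, with treatment in the model. Of these, 885 were higher in the second run (3.99%) and 642 lower (2.89%), and the median sizes were 0.36 and -0.42. The arrays of the 2 runs did not overlap in 15.4% of genes with the second run higher and in 25.2% with it lower. The split moved with the scaling: it was 557 higher (2.51%) and 950 lower (4.28%) after quantile normalization of the 5 arrays, and 1050 higher (4.73%) and 347 lower (1.56%) after centring each array on its median. The median of all genes was -0.050 as deposited, -0.01 after centring and -0.06 after quantile normalization. The count also rested on methanol replicate 3, without which 442 genes passed, 420 of them among the 1527. Leaving out an untreated array gave 2328 (replicate 1) or 2332 (replicate 2), and leaving out methanol replicate 1 or 2 gave 2055 or 1079. It was 0 where the moderation used no trend on signal, and 637 in a fit to all 20 arrays. The latter fit gives a shared run difference for the controls and the BMP4 groups, which is not that of the controls alone. Without an untreated array or methanol replicate 1 the only residual spread is that between methanol replicates 2 and 3. The run differences of the untreated and of the methanol arrays correlated at r = 0.544 over the genes above background, as a description across genes.

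**Figure D4:**
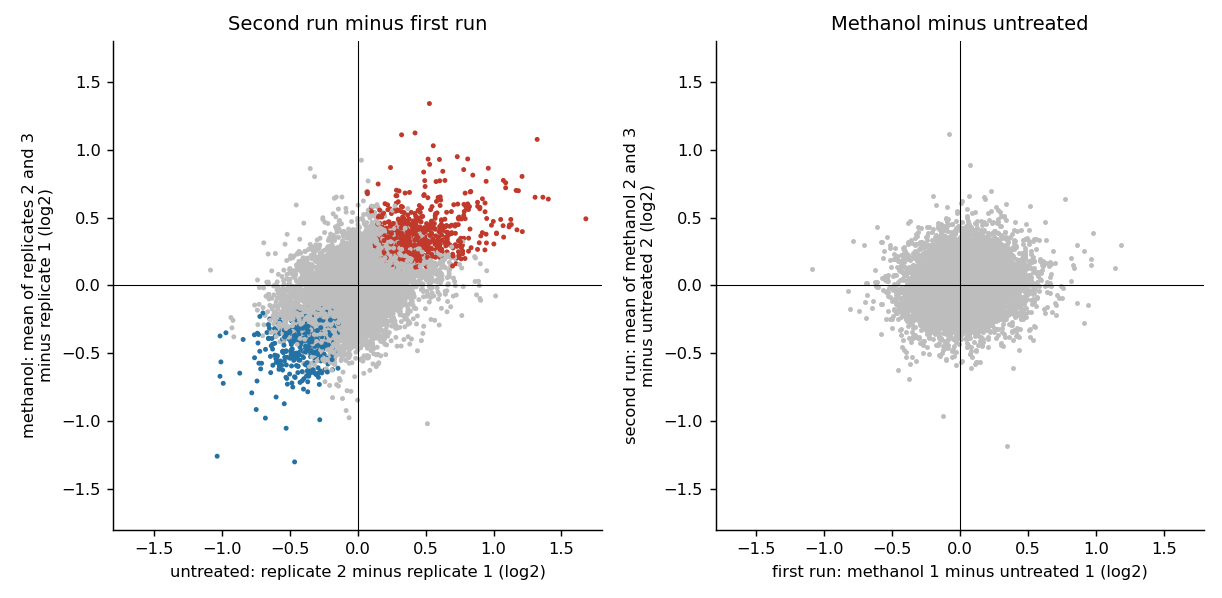
Left, the second-run minus first-run difference of each gene above background in methanol (y axis, log2) against that in untreated cells (x axis, log2), with called genes in red (higher, 830) and blue (lower, 502); right, the methanol minus untreated difference within the second run (y axis) against that within the first (x axis). The left cloud is drawn out along the diagonal (r = 0.544) and the right one is round (r = 0.0959).

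Part of the muscle genes were lower in the second run. Of the 44 sarcomere genes 9 were called lower and 1 higher, and 35 of 44 had negative estimates, with a median of -0.16. Of the 33 genes of excitation, the synapse and muscle metabolism 10 were called lower and none higher, 30 had negative estimates and the median was -0.28. Both medians lay below the -0.050 of all genes, of which 2.89% were called lower and 3.99% higher. Negative estimates were found in 13304 of the 22180 genes. Of the 11928 genes above background 502 were called lower and 6210 had negative estimates. Over the 2 lists together 19 genes were called lower as deposited, 27 after quantile normalization and 12 after centring. Without methanol replicate 3 the number was 7, against 24 to 29 without any other array, and in the fit to all 20 arrays it was 1.

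Kcnj2, an inward-rectifier potassium channel of the muscle membrane, had the largest run difference of these lists. It read 6.70 and 6.63 on the first-run arrays, untreated then methanol, and 5.69, 5.89 and 6.03 on the second-run arrays. The runs did not overlap, and the estimate was -0.82 (SE 0.115, limma adjusted p = 0.0051). Mb, myoglobin, read 9.18 and 9.23 in the first run and 8.71, 8.72 and 8.40 in the second, an estimate of -0.58 (SE 0.0911, limma adjusted p = 0.00769). Chrng read 10.29 and 10.32 in the first run and 9.79, 9.94 and 9.68 in the second, an estimate of -0.50 (SE 0.0719, limma adjusted p = 0.00558). Methanol replicate 3 was the lowest array for Mb and Chrng and not for Kcnj2. In the sarcomere, Tcap, the titin cap, read 6.38 and 6.06 in the first run and 5.66, 5.46 and 5.42 in the second, an estimate of -0.66 (SE 0.109, limma adjusted p = 0.00963). Tnnc1, slow and cardiac troponin C, read 11.65 and 11.63 in the first run and 11.28, 11.23 and 10.88 in the second, an estimate of -0.49 (SE 0.0863, limma adjusted p = 0.0119). Myoz2 read 8.42 and 8.48 in the first run and 8.03, 8.05 and 7.74 in the second, an estimate of -0.50 (SE 0.0946, limma adjusted p = 0.0152). The runs did not overlap in any of these 3 genes. Mybpc2, fast myosin-binding protein C, was above the floor on 3 arrays only and fell by 0.74.

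Among the regulators that fell, Myog had the smallest adjusted p. Its first-run arrays read 11.17 and 11.22 and its second-run arrays 10.94, 10.85 and 10.69, an estimate of -0.36 (SE 0.0634, limma adjusted p = 0.012). Rbm24, an RNA-binding protein that promotes muscle splicing, also fell by 0.43, although methanol replicate 2 at 8.97 lay beside untreated replicate 1 at 8.98. Id2, an inhibitor of MyoD family proteins, rose: it read 9.09 and 9.38 in the first run and 9.58, 9.72 and 9.82 in the second, an estimate of 0.43 (SE 0.0581, limma adjusted p = 0.00417). The fusion gene Mymx fell by 0.59 (SE 0.101, limma adjusted p = 0.0105). Myod1 was called lower at -0.18 (limma adjusted p = 0.0439), and the call was lost without methanol replicate 1 (0.127), 2 (0.147) or 3 (0.159) and after centring (0.143). Of the 25 genes lowered across the 4 muscle lists of 130 genes, 10 kept their call with each array left out in turn and under both scalings, namely Myog, Rbm24, Mymx, Tnnc1, Mybpc2, Tcap, Myoz2, Chrng, Kcnj2 and Mb. The fits without an untreated array or methanol replicate 1 take their only residual spread from methanol replicates 2 and 3. None of the 10 passed in the fit to all 20 arrays, which called Cdh11 and Eno3 alone of the 25. That fit measures a run difference shared with the BMP4 groups and not that of the controls alone. None of the 10 passed without a trend on signal. The 15 others, among them Myh3, Ckm, Tnnc2, Chrnd, Rapsn and Atp2a1, lost their call without methanol replicate 3, at limma adjusted p between 0.0577 and 0.159. Of the 7 raised genes of these lists Id2 and the tropomyosin gene Tpm3 kept it. Id2 lost its call with all 20 arrays, where Tpm3, Tcf12 and Met passed.

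The promoters of the lowered muscle genes can be read beside the stretches printed above. A RefSeq stretch was found for 15 of the 25, and all 15 held CANNTG and 8 (53.3%) held CAGCTG. Of the other members of the 4 lists 73 had a stretch, and 48 (65.8%) and 24 (32.9%) of them held these motifs. Over all 27025 genes with a stretch the shares were 69.3% and 14.7%. A gene with several stretches was counted where any of them held the motif. The genes were chosen by the run difference and no test was made.

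The arrays of BMP4-treated cells gave the same runs outside the controls, with 1 array in each run at 10 ng/ml and at 100 ng/ml, and the muscle lists differed there by list and dose. The sarcomere median, second run minus first, was 0.32 at 10 ng/ml (39 of 44 genes higher) and 0.08 at 100 ng/ml (28 higher), and the medians for excitation, synapse and metabolism were 0.10 (22 of 33 higher) and 0.11 (24 higher). The medians were -0.06 and 0.06 for the myogenic regulators and -0.10 and 0.10 for the surface and fusion genes. Of the 25 muscle genes lowered in the controls, 6 were also lower in the 10 ng/ml pair and 10 in the 100 ng/ml pair. Myog differed by 0.43 and 1.34 in these pairs and Id2 by -1.33 and -0.30, opposite in sign to the controls. Each BMP4 value rests on 1 array against 1 and has no replicate check. Over all genes called higher in the controls, 63.2% were also higher in the 10 ng/ml pair and 90.4% in the 100 ng/ml pair, beside 49.7% and 45.6% of all genes. Of those called lower, 64.8% and 78.0% were also lower, beside 50.3% and 54.4% of all genes. Most called genes were above background (93.8% of the higher and 78.2% of the lower). Of all genes above background 37.7% and 51.6% were higher in these pairs, and 62.3% and 48.4% were lower. The 64.8% at 10 ng/ml thus lay near the share of genes above background.

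Bone, cartilage and fat genes gave few calls between the runs, beside 3.99% of all genes called higher and 2.89% lower. Called were 1 of 23 osteoblast genes higher and 1 lower, none of 19 chondrocyte genes and 2 of 20 adipocyte genes higher. Of the osteoblast genes Ogn rose by 0.29 (SE 0.045, limma adjusted p = 0.00769) and Ank fell by 0.25, the latter lost without methanol replicate 3 (limma adjusted p = 0.0708). Sp7 and Alpl did not pass. Ogn kept its call in the fit to all 20 arrays. Lpl read 7.30 and 7.27 in the first run and 7.93, 8.12 and 8.09 in the second. The runs stood well apart, with an estimate of 0.75 (SE 0.0776, limma adjusted p = 0.00189), and the BMP4 pairs gave -0.70 and 0.50. Its call was lost in the fit to all 20 arrays (limma adjusted p = 0.33). Scd1, a fatty acid desaturase gene, was the other adipocyte gene called, at 0.21 (limma adjusted p = 0.0482), and its call was lost under either scaling.

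Over all genes 2.89% were called lower and 3.99% higher between the runs, and 13304 of 22180 had negative estimates. Over the 4 matrix lists 6 of 100 genes were called lower and 1 higher, with a median of -0.07, and 67 had negative estimates. Tgm2, a transglutaminase that crosslinks matrix proteins, had the largest of them. It read 8.33 and 8.32 in the first run and 7.73, 7.60 and 7.39 in the second, an estimate of -0.73 (SE 0.0869, limma adjusted p = 0.00309). The microfibril gene Mfap2 fell by 0.53 and decorin (Dcn) by 0.29, and the calls of these 3 held with each array left out and under both scalings. In the fit to all 20 arrays Mfap2 kept its call, and Tgm2 and Dcn lost theirs. Col1a1 fell by 0.29 (SE 0.0655, limma adjusted p = 0.0278), a call lost without methanol replicate 1 or 3 and after centring. Like Mfap2, it was called in the fit to all 20 arrays. The collagen chaperone gene Serpinh1, the gelatinase gene Mmp2 and the higher Timp3, a metalloproteinase inhibitor gene, were called as deposited and lost without methanol replicate 3. Of 16 collagens 15 had negative estimates, with a median of -0.08.

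BMP ligands and antagonists leaned lower, beside 2.89% of all genes called lower and 13304 of 22180 with negative estimates. Of the 28 genes 23 had negative estimates (median -0.16), none was called higher and 4 were called lower. These were Bmp4 (-0.38), Gdf5 (-0.50), Fst (-0.41) and the antagonist gene Nbl1 (-0.33). Bmp4 read 7.37 and 7.73 in the first run and 7.10, 7.40 and 7.13 in the second, so the runs overlapped by 1 array. Nbl1 alone held its call with each array left out and under both scalings, and without methanol replicate 3 the others gave limma adjusted p of 0.0671 to 0.131. In the fit to all 20 arrays Fst alone of the 4 was called, and Nbl1 was not. Among 22 receptor and SMAD genes 1 was called, the co-receptor gene Hjv at -0.43, lost without methanol replicate 1.

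Part of the genes of dividing cells were higher in the second run. Of 38 genes of S and M phase 9 were called higher and none lower, 29 had positive estimates and the median was 0.10. Of all genes 3.99% were called higher, and 8876 of 22180 had positive estimates. Of the 11928 genes above background, as all 38 were, 830 were called higher and 5718 had positive estimates. Bub1, a kinase of the spindle checkpoint, read 8.22 and 8.28 in the first run and 8.73, 8.70 and 8.76 in the second, an estimate of 0.48 (SE 0.0625, limma adjusted p = 0.00395). Pcna, the sliding clamp of DNA replication, read 9.42 and 9.57 in the first run and 9.93, 9.81 and 9.95 in the second, an estimate of 0.40 (limma adjusted p = 0.00903). Neither gene's runs overlapped, and these 2 and the kinesin gene Kif23 kept the call with each array left out, under both scalings and with all 20 arrays. Kif11, Kif20a, Cenpe, Top2a, Mcm4 and Plk1 lost it without methanol replicate 3, at limma adjusted p of 0.052 to 0.149. Of these Kif11, Kif20a and Cenpe were called with all 20 arrays. In the BMP4 pairs the median of the list was -0.10 at 10 ng/ml and 0.39 at 100 ng/ml.

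Stress and signalling genes moved both ways. Shares over all genes were 3.99% called higher and 2.89% called lower. Of the 11928 genes above background 830 were called higher and 502 lower. Egr1, an immediate early transcription factor, read 9.02 and 9.14 in the first run and 9.63, 9.59 and 9.55 in the second, an estimate of 0.51 (SE 0.0606, limma adjusted p = 0.00309). Junb read 8.87 and 9.01 in the first run and 8.53, 8.58 and 8.57 in the second, and fell by 0.40. The runs were apart in both genes, and the list as a whole had 3 of 24 genes higher and 3 lower. The chemokine gene Ccl2 rose by 0.68 and the growth factor gene Csf1 by 0.38, the 2 of 25 inflammatory genes called. In the unfolded protein and integrated stress response 5 of 27 genes were called higher and 3 lower, with the chaperone gene Dnajb9 at 0.47 and the mTOR inhibitor gene Ddit4 at -0.50 as the calls that held with each array left out and under both scalings. Egr1, Junb, Ccl2, Dnajb9 and Ddit4 also passed with all 20 arrays, and Csf1 did not (limma adjusted p = 0.27). Of 15 heat shock genes 3 were called higher and all 3 calls were lost without methanol replicate 3. Hsp90aa1, one of the 3, was called with all 20 arrays. Of 17 NRF2 targets 4 were called higher, of which Me1, malic enzyme, held (0.62, limma adjusted p = 0.012), except with all 20 arrays (0.64). Markers of endothelial, macrophage and epithelial cells gave no call, and of 11 neural markers 2 were higher and 1 lower. Nefl, the neurofilament light chain, read 8.50 and 8.74 in the first run and 9.18, 9.28 and 9.28 in the second, an estimate of 0.61 (SE 0.0607, limma adjusted p = 0.00189), which did not pass with all 20 arrays (0.11). The part of any such marker in the other results was not tested.

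The mitochondrially encoded genes were the list with the largest called share. Of 10 measured 9 were called higher in the second run, beside 3.99% of all genes. All 10 estimates were positive and the median was 0.27, with 5 calls after quantile normalization and 9 after centring. ND6, a subunit of respiratory complex I transcribed from the light strand, read 6.84 and 7.42 in the first run and 8.16, 8.55 and 8.43 in the second. The runs were far apart, with an estimate of 1.18 (SE 0.0818, limma adjusted p = 0.000299). ND2 read 11.96 and 12.13 in the first run and 12.46, 12.40 and 12.48 in the second, an estimate of 0.39 (SE 0.0491, limma adjusted p = 0.00346). ND1, ND2, ND4L and ND6 kept their calls with each array left out and under both scalings, whereas ND3, ND5, COX1 and CYTB lost theirs after quantile normalization. In the BMP4 pairs all 10 genes were higher as well, with medians of 0.27 and 0.23, and ND6 differed by 1.20 and 0.96. The nuclear gene Slc36a4, an amino acid transporter, read 8.96 and 9.34 in the first run and 10.17, 10.11 and 10.18 in the second, an estimate of 0.98 (SE 0.0814, limma adjusted p = 0.000952). With the mean of its probe sets the estimate was 0.55 (limma adjusted p = 0.00375).

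**Figure D5:**
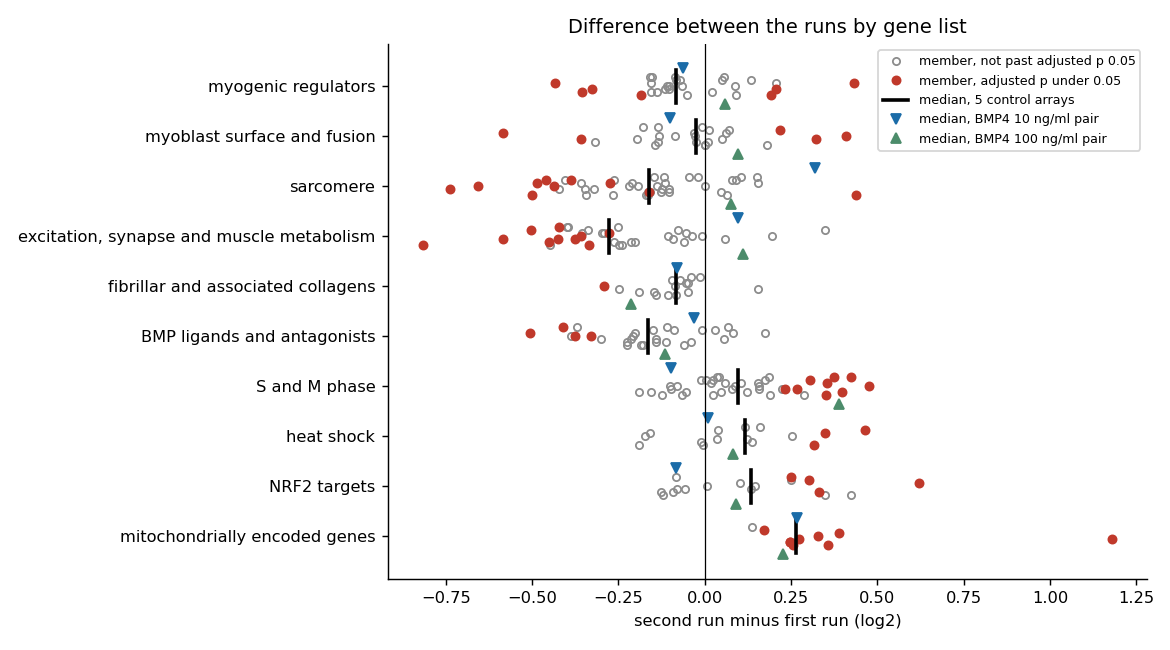
Second-run minus first-run log2 difference (x axis) of the members of 10 gene lists in the 5 control arrays; filled red points passed an adjusted p of 0.05, open grey points did not, black bars are list medians, and triangles are the medians of the same lists in the BMP4 pairs at 10 ng/ml (blue) and 100 ng/ml (green). The bars of the sarcomere (-0.16) and excitation (-0.28) lists lie left of zero while both of their triangles lie right of it, and the mitochondrially encoded genes lie right of zero in all 3.

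The genes with the largest run differences were mostly of other kinds. Higher in the second run were Snord72 (1.66), Zfp97 (1.33), ND6, Mirlet7b (1.12), Gm14403 (1.02), Snora20 (1.01), Gm6625 (1.0), Snora28 (0.99), Uchl3 (0.98), Slc36a4, Snord47 (0.96) and Ifi204 (0.96). Of these Snord72, Zfp97, Mirlet7b, Gm14403, Snora20 and Uchl3 were not above the floor on all 5 arrays. Lower were Cilp (-1.16), Vmn1r20 (-1.11), Adh1 (-1.04), Zfp455 (-0.97), Olfr584 (-0.94), BC021767 (-0.90), Mir3070b (-0.90), Olfr116, Defa21, Serpina1e, Olfr818 and Ctrb1 (-0.85). Of these Cilp, Olfr584 and Ctrb1 were above the floor on all 5 arrays. Cilp, cartilage intermediate layer protein, read 6.75 and 7.02 in the first run and 5.72, 5.91 and 5.61 in the second, an estimate of -1.16 (SE 0.12, limma adjusted p = 0.00189). In the fit to all 20 arrays it was -0.26 (limma adjusted p = 0.715). The runs were apart by more than the spread within either, and the BMP4 pairs gave 0.32 and 1.27, the opposite sign. Ctrb1, annotated as a chymotrypsinogen gene of the pancreas, read 10.44 and 10.55 in the first run and 9.76, 9.68 and 9.48 in the second, an estimate of -0.85 (SE 0.0776, limma adjusted p = 0.00147), and -0.24 with all 20 arrays (limma adjusted p = 0.594). In that fit 12 of these 24 genes lost their call, Zfp97, Snora28 and 10 of the 12 lower ones, all but Vmn1r20 and Serpina1e.

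Single arrays moved some of these values by more than 1.5 times. Gm6625 was 0.49 without either untreated array and 1.68 without methanol replicate 1. Snord47 was 0.64 without either untreated array, and Snora28 was 0.53 without methanol replicate 1. Zfp455 was -1.48 without either untreated array and -0.28 without methanol replicate 1, where its call was lost (limma adjusted p = 0.573), as it also was without methanol replicate 3 (0.0775) and after centring (0.052). Without methanol replicate 1 the calls of Olfr584 (-0.47, limma adjusted p = 0.108), Serpina1e (-0.46, 0.318), BC021767 (-0.60, 0.155) and Olfr818 (-0.74, 0.0675) were lost as well, and that of Serpina1e also without methanol replicate 3 (0.0648). With the mean of a gene's probe sets Adh1 was -0.45 and lost its call (limma adjusted p = 0.0881).

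The run difference was compared between the controls with limma, with 1 mean for each treatment and run. Of 22180 genes 230 passed an adjusted p of 0.05 (1.04%), 61 with a higher run difference in methanol (0.275%) and 169 with a lower one (0.762%). The only residual spread in this fit is that between methanol replicates 2 and 3, the closest pair, and each other cell of the design holds 1 array. No gene passed without a trend on signal and 67 passed after quantile normalization. Among the 230 the array farthest from the median of the 5 was untreated replicate 1 in 122 genes and methanol replicate 1 in 49. In the muscle lists, Tpm3 had a run difference of 0.76 in untreated cells and 0.20 in methanol (limma adjusted p of the difference 0.0012), and titin, Ttn, had -0.22 and 0.25 (limma adjusted p = 0.00712). Mir133b had -0.51 in untreated cells and -0.02 in methanol (limma adjusted p = 0.0308). Myog, Mymx, Chrng, Kcnj2 and Mb did not pass this test.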

How the data were processed

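The deposited values are log2 signals, 1 per probe set and array, which the authors made with RMA in Partek 6.5, per the submitters' processing notes. RMA corrects background, normalizes quantiles and summarises probes. In the series 3 samples were labelled by 2 methods for batch correction, per the labels' protocols, and no source used here says whether a correction was applied. All 5 control arrays carry the standard labelling. Of 41345 probe sets 23521 carried 1 gene symbol, 1814 several and 16010 none in the platform annotation, and symbols can be old. For 1082 genes with more than 1 probe set, the brightest on average was used. Of 146 further probe sets of genes called for the run, 100 had the same sign.

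Linear models were fitted in R 4.3.3 with limma 3.58.1 (lmFit, then eBayes with a trend on signal) on the 5 arrays, with terms for treatment and run, 2 residual and 8.576 prior degrees of freedom, and Benjamini-Hochberg adjustment over 22180 genes at 0.05. The fit was also run on simulated arrays with known changes and independent noise, which do not carry the dependence on single arrays seen here. Of 709 list entries 651 were measured. Named are the textbook members of each list and, per direction, the 12 genes with the largest called difference (with no call, the 12 largest statistics among genes whose mean over the 5 arrays is above the floor), and 6 for the comparison of run differences. Alternatives were other arrays or terms in the fit, no trend, robust moderation, quantile normalization, median centring, a floor filter, mean probe sets, other floors and each array left out. The members and lists were chosen with earlier results of these data known.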

Additional observations from a re-analysis of the deposited data

Results flagged for a closer look

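The difference between the runs was itself compared between methanol and untreated cells, and 230 genes differed by limma at an adjusted p under 0.05. The fit has 1 residual degree of freedom, from methanol replicates 2 and 3, no gene passed without a trend on signal, and 67 passed after quantile normalization.

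In each direction the 6 genes with the largest difference, the run difference in methanol minus that in untreated cells, met the test of the difference. Higher were Fbxw15 (1.98), Prb1 (1.499), 1700084J12Rik (1.42) and the olfactory receptor genes Olfr1299 (1.41), Olfr338 (1.40) and Olfr45 (1.29). None of these was above the background floor on all 5 arrays. Lower were Olfr875 (-1.53), the histone gene H4c9 (-1.53), the vomeronasal receptor gene Vmn1r25 (-1.49), Tdpoz1 (-1.46), Olfr787 (-1.46) and Gm906 (-1.45). Of these Olfr875 alone was above the floor on all 5 arrays. It read 5.73 and 6.25 on the untreated arrays of the first and second run, 6.08 on the first-run methanol array and 5.16 and 4.96 on the second-run methanol arrays (limma adjusted p = 0.000894).

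Brighter genes were chosen after their values were seen. The small nucleolar RNA gene Snora44 read 9.30 and 8.21 on the untreated arrays and 9.22, 9.37 and 9.29 on the methanol arrays, so untreated replicate 2 stood apart from the other 4 (difference 1.20, SE 0.1, limma adjusted p = 6.03e-08). Neat1, the scaffold RNA of nuclear paraspeckles, read 9.10 and 8.65 on the untreated arrays and 8.49, 9.11 and 9.05 on the methanol arrays (difference 1.05, limma adjusted p = 7.68e-07). Ddx5, an RNA helicase that acts with MyoD, read 11.19 and 10.75 on the untreated arrays and 10.95, 11.17 and 11.19 on the methanol arrays (difference 0.67, limma adjusted p = 1.03e-06). Neat1 and Ddx5 were highest on the same 3 arrays, untreated replicate 1 and methanol replicates 2 and 3. Gnpnat1, an enzyme gene of amino sugar synthesis, read 6.82 on untreated replicate 1 and 7.59 to 7.84 on the other 4 arrays (difference -1.09, limma adjusted p = 0.000125). The cause of these differences was not tested.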

How the results depend on the processing

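No named gene's difference reversed its direction under any alternative run, but list medians near 0 changed sign with the scaling. For methanol against untreated cells this held for 11 of 30 lists, with medians of at most 0.03 in size as deposited, and for the run for 7 of 30, with at most 0.04. The run medians given for the sarcomere, excitation, BMP ligand, collagen, S and M phase and mitochondrial lists and for the 4 matrix lists together kept their sign. For methanol against untreated cells the number of called genes was 0 as reported and lay between 0 and 411 with single arrays left out, and the other settings gave 0. The number at an unadjusted p under 0.05, 1984 as reported, was 829 without the run term, 634 in a fit to all 20 arrays with the labelling term and 981 with labelling and run terms. For the run, 1527 genes were called as reported, 0 without a trend, 637 with all 20 arrays, and between 442 and 2332 with single arrays left out. The higher genes (885) numbered 0 without a trend, 557 after quantile normalization, 332 with all 20 arrays and 273 to 1271 with single arrays left out. The lower genes (642) numbered 0 without a trend, 347 after centring, 305 with all 20 arrays and 169 to 1132 with single arrays left out. Of the 1527 called genes 1520 kept their direction with the mean of a gene's probe sets and 1493 with all 20 arrays, and in each other fit those tested kept it. The comparison of run differences gave 0 genes without a trend and 67 after quantile normalization, against 230. Among the named genes, 45 of 349 run values and 23 of 24 values of the compared run differences lost their call under an alternative, and 53 of 336 methanol values gained one. The 349 run values include the differences within the untreated or the methanol arrays alone. These have no adjusted p and could not lose a call. Where a fit left out untreated replicate 1 or 2 or methanol replicate 1, its residual spread was that of methanol replicates 2 and 3 alone, and the cause of the other changes was not tested. No paired analysis was possible because the replicate numbers follow record order and pair no samples.

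Signal over background limits the genes near the floor: 11928 genes passed it, and 8989 to 14230 passed with the 99th and 90th percentile in place of the 95th. Differences below the floor, such as those of Sp7 and Adh1, carry little information on level. With 5 arrays and 2 residual degrees of freedom, small methanol differences may have gone uncalled.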

Other observations

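Classes of genes outside the lists are given here as values. Of 78 small nucleolar RNA genes 60 were above background on all 5 arrays. Between the runs 19 were called higher and 9 lower, beside 3.99% and 2.89% of all genes. Their median was -0.02 as deposited and 0.01 after centring. Of 370 zinc finger genes named Zfp 24 were called higher in the second run and 6 lower, with a median of 0.01 as deposited and -0.01 after quantile normalization. Of 86 ribosomal protein genes named Rpl or Rps with a number, 69 were above background. Between the runs 5 of them were called higher and 6 lower. Their median was 0.01 as deposited and -0.06 after quantile normalization. Rplp1 falls outside this class by its symbol and was chosen after its values were seen. It read 12.41 and 12.36 in the first run and 11.81, 11.86 and 11.80 in the second (limma adjusted p = 0.000397). Npm1, a nucleolar protein gene chosen in the same way, read 10.44 and 10.45 in the first run and 10.85, 10.92 and 10.93 in the second (limma adjusted p = 0.00189). Hgf, a growth factor that activates muscle stem cells and was also chosen after its values were seen, read 8.40 and 8.30 in the first run and 9.04, 9.0 and 9.14 in the second (limma adjusted p = 0.00154), and the BMP4 pairs gave -0.71 at 10 ng/ml and 0.12 at 100 ng/ml. The runs were apart in these 3 genes.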
